A study of Homo sapiens with 24 samples.

Results

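The series holds 24 RNA-seq libraries of A549 cells, a human lung adenocarcinoma line, and the comparison described here uses the 12 that were taken at 8 h. They are 4 libraries whose column in the deposited table ends in the number 4 and 8 libraries whose column ends in the number 1 or 2. Each of the 4 groups at 8 h holds 1 library of each number, so the comparison was made within groups, with the group as a factor. The comparison was chosen from measured values: in an earlier fit over all genes of this table the libraries numbered 4 had been seen to stand apart, at 12 h as well as at 8 h. The 8 h difference between the numbers is therefore given as a description, with no test. Tests are given for the 12 h libraries, which are other libraries than the 12 compared. They are also given for contrasts that a shift common to all libraries of a number does not enter, except in genes of low TPM. Since the 12 h libraries numbered 4 had been seen to stand apart too, the 12 h p-values give no independent support that the numbers differ.

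All groups carry an siRNA and a treatment. Cells were transfected with Dharmafect 1 for 48 h, with an siRNA pool against BOP1 (siBOP1) or with an siRNA against firefly luciferase (siFLuc), a gene that human cells lack. They then received a mock treatment or interferon beta (IFN) at 1000 U/mL. The 4 groups at 8 h are siFLuc mock, siFLuc IFN, siBOP1 mock and siBOP1 IFN, and the same 4 were taken at 12 h. Replicate numbers run to 3 in the labels, whereas the table's columns are numbered 1, 2 and 4. What the number stands for is not stated, and the libraries numbered 4 were matched to their group only. The labels do not say that replicates came from separate cultures, so the p-values below measure the spread between these libraries. Libraries of the same number may share an origin, which these p-values do not take into account.

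Several of the gene groups below follow the state of a culture. Cells short of oxygen stabilise HIF transcription factors, which bind ACGTG or GCGTG cores near genes of glucose uptake, glycolysis and oxygen sensing. Dividing cells make their replication genes in S phase through E2F factors and their mitotic genes in G2 through the MMB complex, which binds CHR elements of promoters that often also hold CCAAT boxes, the sites of NF-Y. Amino acid or endoplasmic reticulum stress raises translation of ATF4, which drives genes of amino acid supply, and serum or growth factors act through ERK on immediate early genes such as FOS and EGR1.

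The siRNA target was lower in siBOP1 cells in every number at 8 h. BOP1, a factor that matures the large subunit of the ribosome, stood at 66.1 and 55.9 TPM in libraries 1 and 2 and at 77.3 TPM in library 4 of siFLuc mock cells, and at 18.01, 18.4 and 19.5 TPM in siBOP1 mock cells. Under IFN it stood at 56.0, 48.0 and 64.4 TPM in siFLuc cells and at 16.6, 16.02 and 17.1 TPM in siBOP1 cells. Library 4 was the highest of its group in all 4 groups, with a difference of 0.20 ± 0.07 (limma log2 difference ± SE, libraries numbered 4 minus those numbered 1 and 2) that did not pass the threshold used to count genes. The BOP1 siRNA effect was -1.89 on the log2(TPM + 1) scale in the libraries numbered 4 and -1.65 in the others.

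Values are TPM, a share of a fixed total, so transcripts that rise strongly lower all others, and sequencing depth is unknown. Between 13844 and 14509 genes per library reached 1 TPM. At 8 h the Pearson r of log2 values within a group was 0.981 to 0.986 between libraries 1 and 2 and 0.976 to 0.982 for pairs with library 4. Summed TPM of 12 A549 markers was 20400 to 23700 in the libraries numbered 4 and 19600 to 21900 in the others. Leukocyte markers (6 genes) summed to 1.92 to 3.34 and 2.35 to 3.85 TPM, with CD3E at 0 in all 12 libraries. CD14 made up nearly all of these sums, at 1.81 to 3.28 and 2.15 to 3.68 TPM. Endothelial markers (4 genes) summed to at most 0.39 TPM.

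At 8 h, 1161 of 14344 genes tested were called higher in the libraries numbered 4 (8.09%) and 1117 were called lower (7.79%), with a call meaning a Benjamini-Hochberg adjusted p under 0.05 in limma. The choice of this comparison fixes that such genes exist, and nothing is read from the counts. Differences were small: 231 of the higher and 354 of the lower genes differed by at least 0.5 on the log2 scale, and 11 and 18 by at least 1. Library 4 lay above both other libraries of its group in all 4 groups for 1479 genes (10.3%) and below both for 1514 (10.6%). The median difference of all genes was -0.01. Without the siFLuc mock library numbered 4 the counts were 493 and 528, and without the siFLuc IFN library numbered 4 they were 561 and 567. Without the siBOP1 IFN library numbered 4 they were 773 and 651. Against number 1 alone they were 750 and 1381, and against number 2 alone 587 and 315. Between numbers 2 and 1, limma called 0 genes (0%), with 3004 genes at an unadjusted p under 0.05, where 717 would be expected with no difference.

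Single genes were taken by the size of the 8 h difference, among those whose library 4 lay outside both others in all 4 groups. The gene with the largest negative difference was IGFBP3 (chromosome 7, 45912245 to 45921874, GENCODE 29 on GRCh38), a secreted binding protein of insulin-like growth factors. Its TPM in libraries 1, 2 and 4 was 474, 540 and 181 in siFLuc mock, 586, 441 and 214 in siFLuc IFN, 384, 388 and 173 in siBOP1 mock, and 646, 719 and 185 in siBOP1 IFN cells. No library numbered 4 overlapped the others, and the difference was -1.44 ± 0.11. The lower genes also included LBH (12.6 to 16.3 TPM against 25.8 to 40.8, difference -1.10), a transcription cofactor. S100A9, a calcium-binding protein of inflammation, stood at 1.01 to 4.26 TPM against 5.62 to 8.46 TPM (-1.22).

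Higher in the libraries numbered 4 were FOSL1 and AREG. FOSL1 (chromosome 11, 65892049 to 65900573), an AP-1 subunit induced by ERK signalling, stood at 16.6, 11.7 and 64.5 TPM in libraries 1, 2 and 4 of siFLuc mock and at 23.3, 15.6 and 47.2 TPM in siFLuc IFN cells. In siBOP1 cells it stood at 16.9, 16.4 and 32.1 TPM (mock) and 22.5, 19.6 and 32.3 TPM (IFN), so the gap was wider in siFLuc cells. Over all 4 groups FOSL1 differed by 1.23 ± 0.20, and the test of its siRNA effect between the numbers gave -0.95 ± 0.26 (limma adjusted p = 0.944). Amphiregulin (AREG, chromosome 4, 74445134 to 74455009), a ligand of the EGF receptor, stood at 50.1 to 69.3 TPM against 20.3 to 28.3 TPM, with no overlap (1.14 ± 0.10). ANPEP, a membrane aminopeptidase, stood at 4.34 to 6.02 TPM against 1.28 to 3.57 TPM (0.97 ± 0.13). FXYD2, a regulator of the sodium pump, stood at 229 to 438 TPM against 92.9 to 242 TPM (1.04 ± 0.13), and these ranges overlap across groups but not within a group. EDN2, an endothelin peptide, stood at 2.37 to 9.59 TPM against 0.506 to 4.48 TPM. PBK, a mitotic kinase, stood at 40.0 to 60.9 TPM against 19.7 to 36.6 TPM (0.95 ± 0.11). The pseudogenes UBE2SP1 (0.98 ± 0.18) and H3P16 (0.90 ± 0.19) share sequence with UBE2S and a histone gene, so their values are uncertain.

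**Figure D1:**
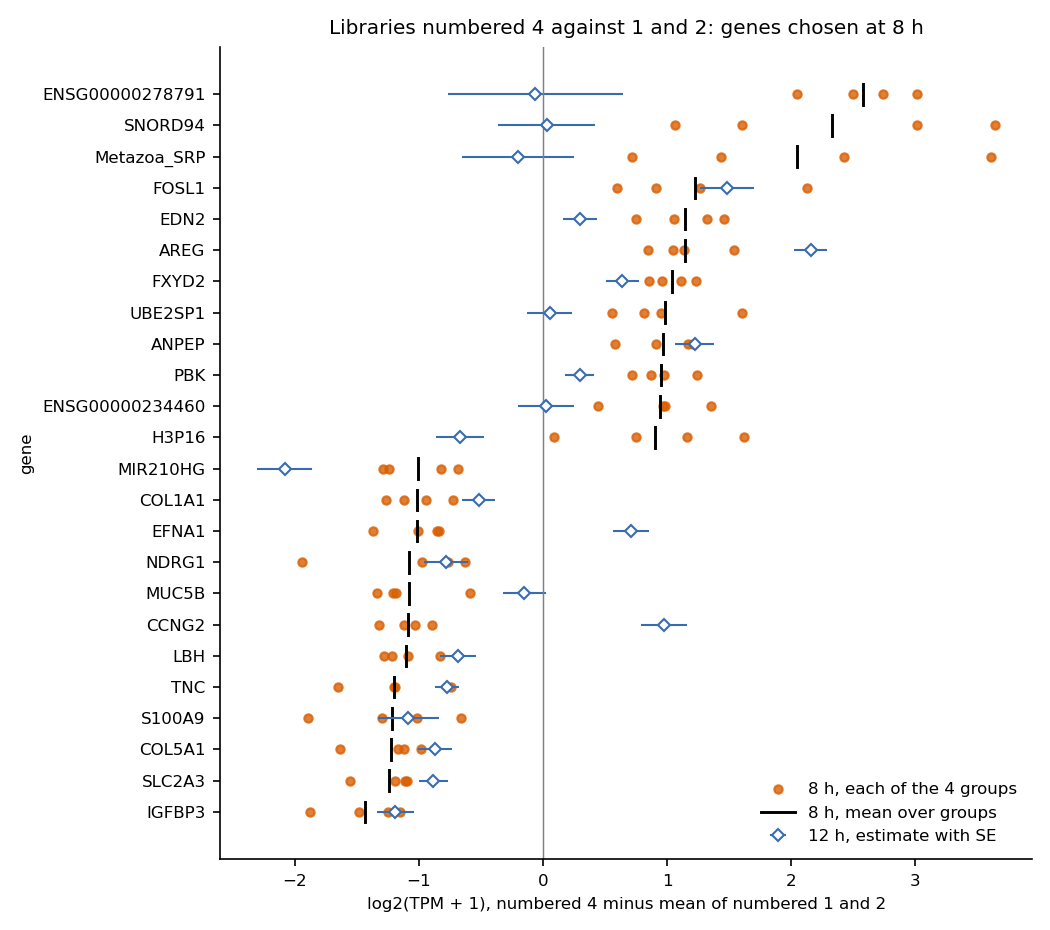
Differences in log2(TPM + 1) between the library numbered 4 and the mean of libraries 1 and 2 for the 24 genes named by rule: each dot is 1 of the 4 groups at 8 h, the black bar is their mean, and the diamond with its bar is the 12 h estimate ± SE. IGFBP3, SLC2A3 and COL5A1 lie below 0 at both times, AREG and FOSL1 above 0 at both, and CCNG2 and EFNA1 are below 0 at 8 h and above 0 at 12 h.

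Genes of hypoxia and glycolysis were lower in the libraries numbered 4. Of 29 listed genes tested at 8 h, 23 were called lower and 0 higher, against 7.79% and 8.09% of all genes, with a median difference of -0.50 beside -0.01 for all genes. The group medians were -0.53 (siFLuc mock), -0.48 (siFLuc IFN), -0.39 (siBOP1 mock) and -0.73 (siBOP1 IFN), and 24 of the 29 lay below both other libraries in all 4 groups. Without number 1 the lower calls were 15. The list's summed TPM was 13650 to 14730 in the libraries numbered 4 and 14650 to 17350 in the others, and library 4 was the lowest of its group each time. The 6 members not called were ANKRD37, MXI1, ERO1A, GAPDH, ALDOC and ENO1, so abundant glycolytic enzymes and some HIF targets were outside the calls.

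The listed members named here are the 4 with the largest 8 h difference. SLC2A3, the glucose transporter GLUT3, stood at 57.8, 49.5 and 22.9 TPM in libraries 1, 2 and 4 of siFLuc mock and at 69.9, 52.9 and 28.0 TPM in siFLuc IFN cells. In siBOP1 cells it stood at 42.3, 34.8 and 17.2 TPM (mock) and at 51.5, 49.8 and 16.6 TPM (IFN). Every library numbered 4 was below every other library, and the difference was -1.24 ± 0.10. NDRG1, a stress-responsive gene, stood at 19.1 to 30.5 TPM against 31.3 to 85.4 TPM, and its within-group differences ran from -0.63 in siBOP1 mock to -1.94 in siBOP1 IFN cells. PDK1, the kinase that shuts pyruvate dehydrogenase, stood at 3.53 to 7.02 TPM against 7.42 to 14.4 TPM (-0.89 ± 0.10). KDM3A, a histone demethylase, stood at 12.9 to 20.4 TPM against 23.1 to 34.8 TPM (-0.86 ± 0.09). Outside the list and taken for its 8 h size alone, MIR210HG, the host transcript of a hypoxia-induced microRNA, stood at 6.22 to 11.9 TPM against 9.62 to 20.6 TPM (-1.01 ± 0.13).

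The promoters of 3 members are shown because HIF cores are the element by which such genes are known to be induced. RefSeq promoters on GRCh38.p14, each from 250 bases before to 50 after the start and each on the plus strand, are PDK1 at chr2:172555123-172555422, KDM3A at chr2:86441121-86441420 and ANGPTL4, a secreted lipase inhibitor, at chr19:8363905-8364204. Capitals mark ACGTG or GCGTG on either strand.
PDK1: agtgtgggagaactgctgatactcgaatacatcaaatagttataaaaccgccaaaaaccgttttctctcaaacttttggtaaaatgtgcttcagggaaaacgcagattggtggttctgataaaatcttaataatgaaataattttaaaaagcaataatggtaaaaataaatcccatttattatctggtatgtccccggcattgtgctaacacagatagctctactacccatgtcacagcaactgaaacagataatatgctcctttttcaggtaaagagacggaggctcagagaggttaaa
KDM3A: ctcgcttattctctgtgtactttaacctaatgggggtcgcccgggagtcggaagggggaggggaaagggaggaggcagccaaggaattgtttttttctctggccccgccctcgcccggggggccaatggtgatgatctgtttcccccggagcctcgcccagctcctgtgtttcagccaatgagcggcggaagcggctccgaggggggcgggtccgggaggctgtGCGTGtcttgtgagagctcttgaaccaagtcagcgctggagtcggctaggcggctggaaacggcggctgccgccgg
ANGPTL4: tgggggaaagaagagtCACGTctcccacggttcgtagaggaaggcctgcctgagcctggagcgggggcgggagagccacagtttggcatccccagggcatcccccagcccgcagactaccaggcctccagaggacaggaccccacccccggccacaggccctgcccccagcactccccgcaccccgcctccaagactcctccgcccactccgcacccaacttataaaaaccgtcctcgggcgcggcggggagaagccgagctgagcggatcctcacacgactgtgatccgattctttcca
KDM3A and ANGPTL4 hold 1 core each and PDK1 holds 0 in this window. Of the 29 members, 25 matched a RefSeq promoter and 19 of those held a core (76%). The share was 63.7% over 10374 tested genes with a promoter and 48.4% over all 34943 promoters, so a core of this length is common, and a match is a description of the letters alone. ANGPTL4 was chosen for display after its values were seen, and it stood at 12.1 to 28.5 TPM against 20.97 to 69.1 TPM.

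At 12 h most of the list was again lower, now with a test of its genes. Of the 29 members, 23 were lower and 2 higher in the libraries numbered 4 in limma (adjusted p under 0.05), against 8.64% and 31.7% of all genes, and the median was -0.47 beside 0.13 for all genes. With median-of-ratios rescaling, which moves the median of all genes from 0.13 to -0.01, 27 were lower and 1 higher, and without number 1 the lower calls were 16. The genes called lower at both times numbered 19. Here and below, rose and fell at 12 h mean higher or lower in the libraries numbered 4 than in the others at 12 h. They do not mean a change from 8 h. SLC2A3 was lower by 0.88 ± 0.12 (adjusted p = 0.000225), at 31.6 to 48.7 TPM against 52.2 to 93.5 TPM. PDK1 was lower by 0.78 ± 0.13 (adjusted p = 0.000937). Both were lower in 4 of 4 groups. KDM3A differed by -0.20 (adjusted p = 0.115). The 2 genes that rose, named after their values were seen, were VEGFA, the angiogenic factor (0.33, adjusted p = 0.00569), and ANKRD37 (0.55, adjusted p = 0.00641). VEGFA did not pass after rescaling (adjusted p = 0.0873) and ANKRD37 did not pass without number 1 (0.0535). Of genes outside the list, named for their 8 h size, IGFBP3 fell by 1.19 ± 0.15 (adjusted p = 0.000188), at 141 to 234 TPM against 297 to 747 TPM, and MIR210HG fell by 2.08 ± 0.22 (adjusted p = 6.77e-05), each in 4 of 4 groups.

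**Figure D2:**
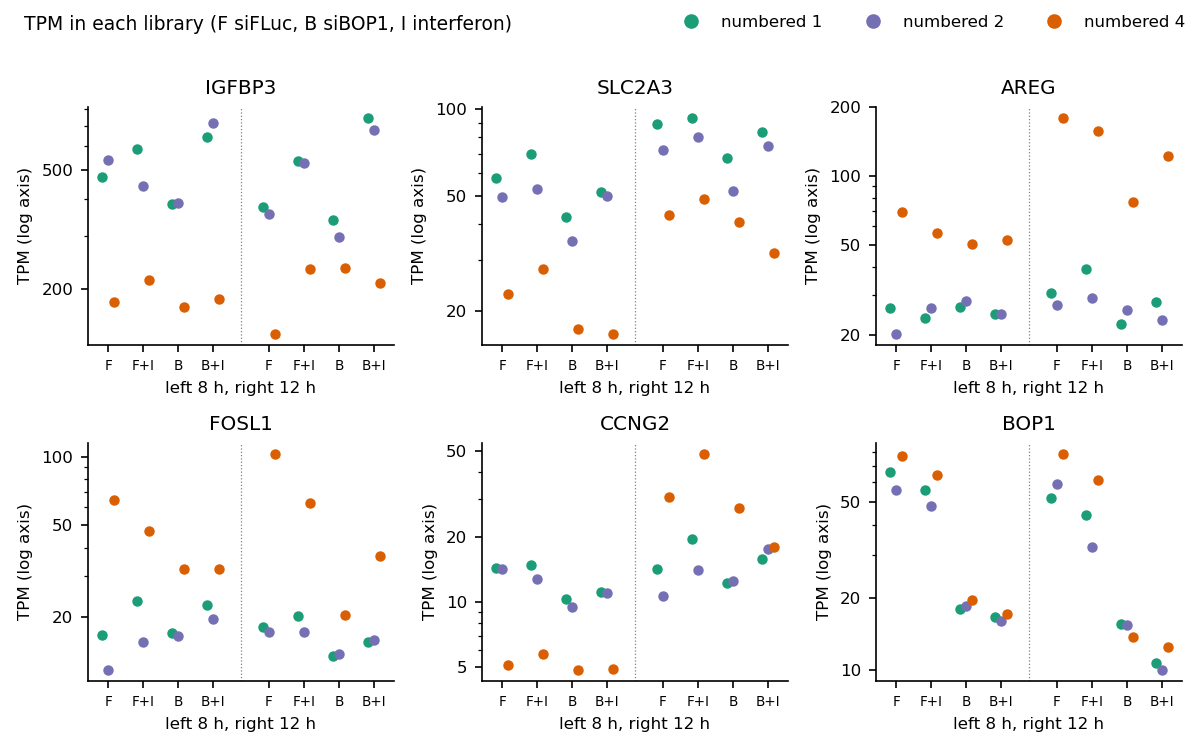
TPM (log axis) of IGFBP3, SLC2A3, AREG, FOSL1, CCNG2 and BOP1 in every library, with the 8 h groups on the left and the 12 h groups on the right of each panel and colour by column number. The libraries numbered 4 lie below the others for IGFBP3 and SLC2A3 at both times, and for CCNG2 they lie below at 8 h (4.87 to 5.79 TPM) and above at 12 h (17.9 to 48.5 TPM).

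Cell cycle genes were higher in the libraries numbered 4 at 8 h. Of 30 G2 and mitosis genes, 25 were called higher and 0 lower, with a median of 0.59, and group medians ran from 0.48 (siBOP1 mock) to 0.62 (siFLuc mock). Of 33 genes of DNA replication and S phase, 26 were called higher and 0 lower, with a median of 0.43 and group medians from 0.25 (siBOP1 mock) to 0.58 (siFLuc mock). Both stand beside 8.09% of all genes called higher. Without the siFLuc mock library numbered 4 the calls were 19 and 14. In bulk RNA, more cells in a phase and more RNA per cell cannot be told apart.

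Summed over the 30 mitotic genes, libraries 1, 2 and 4 held 1214, 935 and 1735 TPM in siFLuc mock, 1012, 889 and 1422 TPM in siFLuc IFN, 1175, 1070 and 1601 TPM in siBOP1 mock, and 904, 756 and 1287 TPM in siBOP1 IFN cells. Library 4 was the highest and library 2 the lowest in each group. The median difference of the list was 0.47 against number 1 and 0.70 against number 2, and number 2 differed from number 1 by -0.25. Library 2 thus lay below library 1 in each group, by less than library 4 lay above them. For replication genes the sums of the libraries numbered 4 were 1815 to 1968 TPM against 1214 to 1651 TPM.

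**Figure D3:**
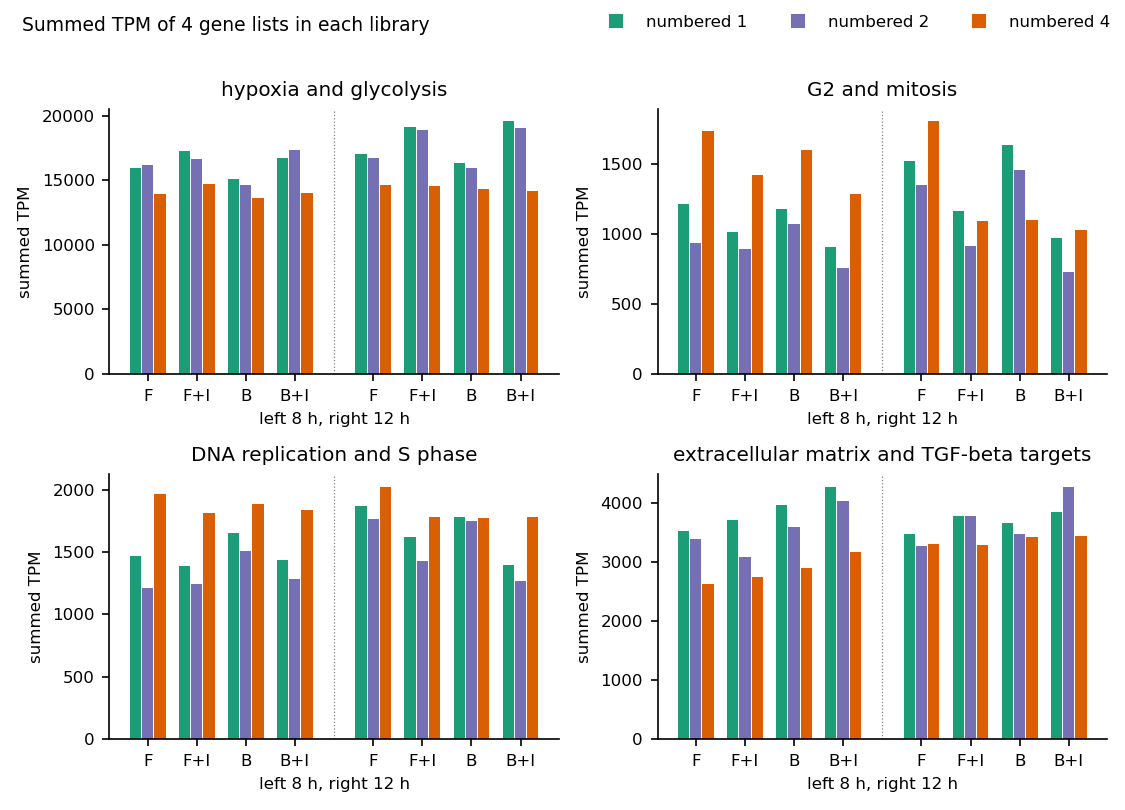
Summed TPM per library of the hypoxia, mitosis, replication and matrix lists in the 4 groups at 8 h (left) and at 12 h (right), with bars from 0 and 1 bar for each column number. At 8 h the bar of library 4 is the highest of its group for mitosis and replication and the lowest for hypoxia and matrix in all 4 groups. At 12 h its mitosis bar is the highest in siFLuc mock and siBOP1 IFN, the middle one in siFLuc IFN and the lowest in siBOP1 mock cells.

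Single mitotic genes were higher in library 4 of each group. CDC20, the activator of the anaphase-promoting complex, stood at 56.3, 37.7 and 96.8 TPM in libraries 1, 2 and 4 of siFLuc mock, at 45.0, 39.5 and 76.5 TPM in siFLuc IFN, at 52.0, 43.9 and 74.3 TPM in siBOP1 mock and at 44.0, 30.8 and 55.7 TPM in siBOP1 IFN cells. Library 4 was above both others each time, by 0.78 ± 0.13. UBE2C, its ubiquitin-conjugating enzyme, stood at 117 to 166 TPM against 65.9 to 109 TPM (0.74 ± 0.07), without overlap. BIRC5, a subunit of the chromosomal passenger complex, stood at 53.01 to 72.7 TPM against 25.2 to 48.0 TPM (0.79 ± 0.10). PTTG1 (securin) differed by 0.72 ± 0.06. The 5 mitotic genes not called were CENPF (0.10), CKAP2 (0.24), ASPM (0.27), CENPE (0.30) and CCNF (0.36). Among replication genes TK1, thymidine kinase, stood at 104 to 110 TPM against 49.3 to 74.6 TPM (0.77 ± 0.09), and POLE2 and CDC45, of the replisome, differed by 0.72 and 0.71.

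Promoters of 3 mitotic genes are shown because CHR and CCAAT are elements by which genes of this class are known to follow the cell cycle: CDC20 at chr1:43358731-43359030, PTTG1 at chr5:160421605-160421904 and the mitotic kinase CDK1 at chr10:60778081-60778380, all RefSeq on GRCh38.p14 and on the plus strand. The 3 genes were taken by the rule used for the hypoxia list, here among members called higher, and BIRC5 and UBE2C had no match. Capitals mark TTTGAA (the CHR core) and CCAAT on either strand.
CDC20: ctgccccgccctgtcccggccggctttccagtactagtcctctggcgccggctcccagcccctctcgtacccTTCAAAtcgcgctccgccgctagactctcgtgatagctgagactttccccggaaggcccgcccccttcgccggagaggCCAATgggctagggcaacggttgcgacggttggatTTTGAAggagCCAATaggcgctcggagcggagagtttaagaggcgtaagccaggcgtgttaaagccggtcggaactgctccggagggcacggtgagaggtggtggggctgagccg
PTTG1: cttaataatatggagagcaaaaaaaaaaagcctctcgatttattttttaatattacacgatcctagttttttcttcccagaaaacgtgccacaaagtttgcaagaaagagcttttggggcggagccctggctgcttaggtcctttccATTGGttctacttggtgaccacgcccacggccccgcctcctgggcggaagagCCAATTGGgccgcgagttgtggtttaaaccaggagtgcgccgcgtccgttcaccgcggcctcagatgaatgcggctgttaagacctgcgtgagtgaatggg
CDK1: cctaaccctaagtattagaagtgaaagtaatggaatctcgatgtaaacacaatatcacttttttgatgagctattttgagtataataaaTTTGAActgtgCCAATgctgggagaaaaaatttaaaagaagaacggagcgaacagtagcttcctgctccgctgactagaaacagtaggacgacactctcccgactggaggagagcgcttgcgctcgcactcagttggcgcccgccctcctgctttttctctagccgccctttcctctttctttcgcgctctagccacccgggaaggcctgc
CDC20 holds 2 CHR cores and 2 CCAAT boxes, CDK1 holds 1 and 1, and PTTG1 holds 0 and 3, of which a pair on opposite strands overlaps. Of 30 members 26 matched a promoter, and 17 held TTTGAA (65.4%) against 9.34% of tested genes with a promoter and 15.2% of all promoters. CCAAT was in 22 (84.6%) against 37% and 34.6%. CDK1 was chosen for display after its values were seen, and it stood at 78.1 to 93.2 TPM against 43.4 to 72.2 TPM (0.72 ± 0.10).

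At 12 h no mitotic gene of the list passed the test. Of its 30 genes limma called 0 higher and 0 lower, with 2 and 0 at an unadjusted p under 0.05, and the median was -0.02, against 31.7% of all genes called higher. Leaving out single libraries or a number gave 0 to 2 calls and medians of -0.14 to 0.18. The summed TPM at 12 h in libraries 1, 2 and 4 was 1519, 1349 and 1803 in siFLuc mock but 1632, 1456 and 1097 in siBOP1 mock cells, so library 4 was the highest of one group and the lowest of the other. In siFLuc IFN the sums were 1161, 911 and 1091, and in siBOP1 IFN they were 972, 728 and 1025. UBE2C differed by -0.01 ± 0.15 (adjusted p = 0.951), CDC20 by 0.37 ± 0.14 (adjusted p = 0.0528) and CDK1 by 0.13 ± 0.09 (adjusted p = 0.278). Of the replication genes 13 of 33 were higher and 0 lower at 12 h, with a median of 0.17, and with rescaling 4 were higher and 3 lower. TK1 rose by 0.41 ± 0.10 (adjusted p = 0.0065), which was lost with rescaling (0.063). CDC6, the origin licensing factor, rose by 0.60 ± 0.13 (adjusted p = 0.00403), in 4 of 4 groups, and did not pass without number 2 (0.0555). TK1 did not pass without number 2 either (0.061).

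Matrix genes were lower at 8 h. Of 26 genes of the extracellular matrix and TGF-beta targets, 16 were called lower and 0 higher, against 7.79% and 8.09% of all genes. The median was -0.45, with group medians of -0.60 to -0.43, and without number 1 the lower calls were 10. The list's sums in the libraries numbered 4 were 2621 to 3170 TPM against 3074 to 4274 TPM. COL5A1, a fibrillar collagen chain, stood at 32.98, 26.9 and 8.95 TPM in libraries 1, 2 and 4 of siFLuc mock and at 33.7, 19.8 and 11.4 TPM in siFLuc IFN cells. In siBOP1 cells it stood at 53.1, 40.8 and 23.1 TPM (mock) and 44.5, 39.8 and 18.2 TPM (IFN). Library 4 was the lowest of each group, by 1.22 ± 0.14 on the log2 scale. COL1A1 stood at 5.37 to 7.24 TPM against 7.61 to 19.3 TPM, and FN1 (fibronectin) at 57.9 to 87.2 TPM against 106 to 200 TPM. TNC (tenascin C), a matrix gene outside the list that was named for its 8 h size, stood at 5.397 to 11.6 TPM against 13.7 to 24.7 TPM. Fibroblast markers (7 genes) summed to 5.73 to 7.98 TPM against 8.14 to 19.9 TPM, of which COL1A1 made up nearly all. Their part in the result was not tested.

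At 12 h, 9 of the 26 matrix genes were lower and 4 higher, against 8.64% and 31.7% of all genes, with a median of -0.12 beside 0.13. Of the 16 called lower at 8 h, 9 were lower at 12 h, and without number 2 the list had 5 lower. COL5A1 fell by 0.87 (adjusted p = 0.000703), FN1 by 0.54 (adjusted p = 0.00241) and SPARC, a collagen-binding glycoprotein, by 0.56 (adjusted p = 0.000149), each in 4 of 4 groups. COL1A1 fell by 0.52 (adjusted p = 0.00975) and did not pass without number 2 (0.126). The 4 that rose, named after their values were seen, were the TGF-beta feedback genes SMAD7 (0.55, adjusted p = 0.00764) and SKIL (1.28, adjusted p = 5.19e-06), and THBS1 and LAMA3, which did not pass after rescaling (0.17 and 0.335). SMAD7 did not pass without number 2 (0.0786). SMAD7 and SKIL had been called lower at 8 h (-0.51 and -0.46). TNC, outside the list, fell by 0.77 ± 0.10 (adjusted p = 0.000159).

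Interferon-stimulated genes were induced in libraries of every number. Of 51 listed genes 11 were called lower and 0 higher at 8 h, against 7.79% and 8.09% of all genes. The median was -0.17, and 5 were called lower without number 1. The group medians were -0.24 (siFLuc mock), -0.19 (siFLuc IFN), -0.01 (siBOP1 mock) and -0.20 (siBOP1 IFN), so siBOP1 mock cells hardly differed. The median IFN effect over the list was 4.76 in the libraries numbered 4 and 4.87 in the others. IFI44 stood at 305, 263 and 210 TPM in libraries 1, 2 and 4 of siFLuc IFN and at 290, 269 and 201 TPM in siBOP1 IFN cells. Without IFN it stood at 0.951 and 1.33 TPM in libraries 4 and at 1.88 to 3.15 TPM in the others. It was the lowest in library 4 with or without IFN (-0.60 ± 0.10). IFIT2, GBP1 and STAT2 differed by -0.37, -0.36 and -0.35. At 12 h, 18 of 51 were lower and 1 higher, against 8.64% and 31.7% of all genes. Without number 2 the 12 h lower calls were 10, and with rescaling they were 28. The higher gene was EIF2AK2, the kinase PKR (0.32, adjusted p = 0.00183, named after its value was seen). IFI44 fell by 0.78 (adjusted p = 0.00251). IFIT1 under IFN at 12 h stood at 1242 and 1306 TPM in libraries 1 and 2 and at 553.5 TPM in library 4 of siFLuc cells, and over the groups it fell by 0.88 ± 0.09 (adjusted p = 4.14e-05). IFIT genes are paralogs, and how shared reads were assigned is not stated.

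Whether the IFN effect itself differed between the numbers was tested at 8 h, a contrast that a common shift does not enter in well-expressed genes. On the log2(TPM + 1) scale such a shift is compressed in genes that are low without IFN. It can therefore enter the contrast for them. limma called 0 of 14344 genes (0%), with 671 at an unadjusted p under 0.05 and 0.173 as the lowest adjusted p. For the BOP1 siRNA effect it called 0 (0%), with 750 at an unadjusted p under 0.05 and 0.137 as the lowest adjusted p. OAS1, an oligoadenylate synthetase, was the nearest to passing among the genes fixed for this test. It stood at 24.7, 27.5 and 39.0 TPM in siFLuc mock and at 985, 923 and 837 TPM in siFLuc IFN cells, and at 20.0, 19.3 and 30.4 TPM (mock) and 1016, 1044 and 900.1 TPM (IFN) in siBOP1 cells. Library 4 was thus the highest without IFN and the lowest with it, and the IFN effect was 4.62 in the libraries numbered 4 and 5.39 in the others (difference -0.77 ± 0.09, unadjusted p = 1.21e-05, adjusted p = 0.173). IFIT1 (0.63 ± 0.26), MX1 (0.30 ± 0.23) and ISG15 (0.49 ± 0.25) differed in the other direction and had adjusted p = 1. Under IFN at 8 h library 4 was still the lowest of its group for each of these genes. Values without IFN were low: in siFLuc mock cells IFIT1 stood at 1.92, 3.81 and 0.676 TPM in libraries 1, 2 and 4, and MX1 at 1.60, 2.54 and 0.709 TPM. BOP1 differed by -0.25 ± 0.13 in its siRNA effect (adjusted p = 0.954). Leaving out 1 library gave up to 9 genes for IFN and up to 10 for the siRNA.

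**Figure D4:**
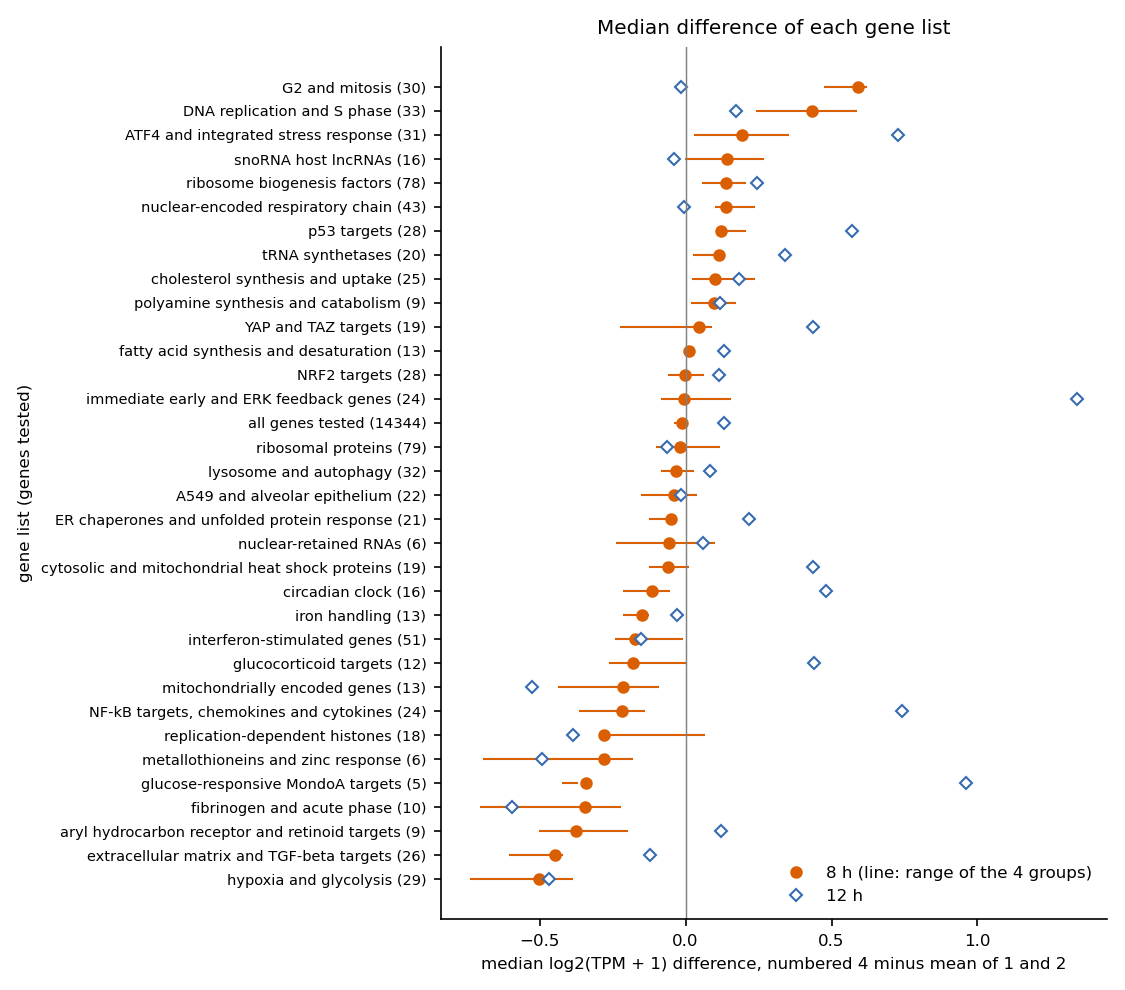
Median log2 difference of each gene list between libraries numbered 4 and those numbered 1 and 2, with the 8 h dot and the range of the 4 group medians, and the 12 h median as a diamond. Hypoxia is near -0.5 at both times, mitosis is at 0.59 at 8 h and -0.02 at 12 h, and immediate early genes are at -0.01 at 8 h and 1.34 at 12 h.

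The 12 h libraries numbered 4 differed more widely. There 4550 genes were higher (31.7%) and 1239 lower (8.64%), so 78.6% of the calls were higher. With rescaling the counts were 2176 and 2491 (46.6% higher) and with quantile normalization 2199 and 2184 (50.2%), whereas at 8 h these settings gave 47.7% in place of 51%. Of the genes called higher at 8 h, 603 were higher at 12 h (51.9%) and 28 lower. Of those called lower at 8 h, 340 were lower (30.4%), 219 higher (19.6%) and 558 not called. Genes called in the same direction at both times were 41.4% of the 8 h calls and 16.3% of the 12 h calls. The signed difference was more positive at 12 h than at 8 h for 3015 genes (21%) and more negative for 640 (4.46%), a contrast of which 1 term is the chosen 8 h comparison.

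ATF4 and p53 targets are given beside shares of all genes called higher of 8.09% at 8 h and 31.7% at 12 h. Of 31 ATF4 targets 14 were called higher and 4 lower at 8 h (median 0.19), with 5 higher without number 1, and at 12 h 29 were higher and 2 lower (median 0.73), or 25 and 2 with rescaling. Of 28 p53 targets 8 were higher at 8 h (median 0.12), and at 12 h 23 were higher and 1 lower (median 0.57), or 19 and 1 with rescaling. CHAC1, a glutathione-degrading enzyme induced by ATF4, stood at 1.58 to 3.79 TPM against 0.906 to 1.32 TPM at 8 h and at 4.14 to 34.9 TPM against 1.35 to 3.81 TPM at 12 h. The 12 h difference was 2.44 (adjusted p = 0.000109). MTHFD2, of mitochondrial one-carbon metabolism, stood at 78.2 to 131 TPM against 60.2 to 70.0 TPM at 8 h. Its 12 h difference was 1.39 (adjusted p = 9.55e-06). GDF15, a stress cytokine, stood at 48.0 to 82.0 TPM against 32.3 to 52.95 TPM at 8 h, with overlap, and at 257 to 451 TPM against 40.1 to 73.2 TPM at 12 h, with none. Its 12 h difference was 2.50 ± 0.10 (adjusted p = 6.43e-07).

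Several ATF4 targets went the other way at 8 h. STC2, a secreted glycoprotein, was called lower at 8 h (-0.73 ± 0.13) and was higher by 0.64 at 12 h (adjusted p = 0.00115). DDIT4, an inhibitor of mTORC1, was also lower at 8 h (-0.61), as were SLC7A11 (-0.27), a cystine transporter, and VLDLR (-0.54), a lipoprotein receptor. VLDLR was lower at 12 h too (adjusted p = 0.00107), with ATF5 (-0.53, adjusted p = 0.000923). The list's name therefore covers members with unlike 8 h values.

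Immediate early genes were mostly not called at 8 h and mostly higher at 12 h. Of 24 immediate early and ERK feedback genes 4 were called higher and 2 lower at 8 h, against 8.09% and 7.79% of all genes, with a median of -0.01. At 12 h 20 were higher and 0 lower, with a median of 1.34 (20 of 24 against 31.7% of all genes). The 4 were FOSL1, DUSP5 (0.51) and ETV4 (0.30), a phosphatase and a transcription factor of the ERK pathway, and KLF2 (0.76). The 2 were JUNB (-0.67) and SPRED2 (-0.31), an AP-1 subunit and an ERK inhibitor. EGR1, named after its values were seen, was at or below 0.644 TPM in all 12 libraries at 8 h. At 12 h EGR1 stood at 6.24, 1.41 and 148 TPM in libraries 1, 2 and 4 of siFLuc mock cells. In the other groups it stood at 6.09 to 21.4 TPM against 0.283 to 1.39 TPM, and the 12 h difference was 3.55. EGR1 reached the filter of a mean of 1 TPM over all columns only through the 12 h libraries numbered 4. No test of it is therefore given. Any list member that passed in this way was favoured to be called higher at 12 h. JUNB stood at 30.9 to 83.6 TPM against 57.9 to 136 TPM at 8 h, lower within each group. At 12 h it was higher by 1.11 (adjusted p = 3.96e-05). FOSL1 was higher at 12 h by 1.48 ± 0.22 (adjusted p = 0.000464) and AREG by 2.16 ± 0.13 (adjusted p = 2.44e-06), each in 4 of 4 groups.

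Of 24 NF-kB targets, chemokines and cytokines 11 were called lower and 1 higher (RELB, an NF-kB subunit, 0.39) at 8 h, with a median of -0.22. Of all genes 7.79% were called lower and 8.09% higher, and without number 1 the list had 6 lower. At 12 h 15 were higher and 5 lower, against 31.7% and 8.64% of all genes, with a median of 0.74. Without number 1 the 12 h counts were 10 and 4, and without number 2 they were 11 and 4. CXCL8, the neutrophil chemokine, stood at 277, 322 and 164 TPM in libraries 1, 2 and 4 of siFLuc mock and at 458, 497 and 315 TPM in siFLuc IFN cells at 8 h. In siBOP1 cells it stood at 255, 277 and 140 TPM (mock) and 428, 454 and 250 TPM (IFN). Library 4 was the lowest each time, by 0.80 ± 0.06 on the log2 scale. At 12 h CXCL8 stood at 433 to 821 TPM in the libraries numbered 4 against 210 to 485 TPM, the highest of its group in 4 of 4. The 12 h difference was 0.84 (adjusted p = 0.00137). The 5 lower at 12 h were CCL5, IL32, C3, CFB and LCN2, of which all but CCL5 were called lower at 8 h too. LCN2, a siderophore-binding protein, stood at 137 to 245 TPM against 296 to 404 TPM at 8 h (-0.91 ± 0.11) and fell by 0.73 at 12 h (adjusted p = 0.000255). CCL5 did not pass at 12 h without number 1 (0.122), without number 2 (0.0887) or without the siFLuc mock library numbered 4 (0.114).

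CCNG2 and EFNA1 had the most opposed values among the largest differences. CCNG2 (chromosome 4, 77157151 to 77433388), a cyclin of arrested cells, stood at 14.3, 14.3 and 5.14 TPM in libraries 1, 2 and 4 of siFLuc mock at 8 h and at 14.3, 10.6 and 30.6 TPM at 12 h. In the other groups library 4 stood at 4.87 to 5.79 TPM against 9.46 to 14.8 TPM at 8 h and at 17.9 to 48.5 TPM against 12.3 to 19.7 TPM at 12 h. The difference between library 4 and the others was -1.09 ± 0.08 at 8 h and 0.98 ± 0.18 at 12 h (adjusted p = 0.00183, 4 of 4 groups). EFNA1, an ephrin ligand, stood at 36.0 to 52.4 TPM against 61.5 to 104 TPM at 8 h. Its 12 h difference was 0.71 (adjusted p = 0.00268, above both others in 3 of 4 groups). TXNIP, the arrestin that limits glucose uptake, was lower at 8 h (-0.74) and higher by 0.96 at 12 h (adjusted p = 0.00297).

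The metabolic and acute phase lists are read beside all genes, of which 8.09% were called higher and 7.79% lower at 8 h. At 12 h these shares were 31.7% and 8.64%. Of 25 cholesterol genes 8 were called higher and 3 lower at 8 h, with a median of 0.10. The higher genes included EBP, a sterol isomerase, which stood at 139 to 221 TPM against 83.7 to 155 TPM and was the highest of each group in library 4 (0.68 ± 0.05). EBP was also higher at 12 h, by 0.47 (adjusted p = 0.00128). Without the siFLuc mock library numbered 4 the higher cholesterol calls at 8 h were 4. Of 78 ribosome biogenesis factors 22 were called higher and 0 lower at 8 h (median 0.14), 7 of them without number 1, and at 12 h 46 were higher and 2 lower (17 and 3 with rescaling). The 2 were RRS1 and IMP3. Of 43 nuclear-encoded respiratory chain genes 14 were higher and 0 lower at 8 h (median 0.14), and 1 was higher without number 1. At 12 h 4 of them were higher and 1 lower (median -0.005), or 0 and 16 with rescaling. Of 10 acute phase genes 5 were lower at both times (SERPINA3, SAA1, SAA2, C3 and CP). Of 6 metallothionein and zinc genes 3 were lower at 8 h (MT1F, MT1X and MT2A), and MT1X fell by 1.37 at 12 h (adjusted p = 1.39e-05).

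**Figure D5:**
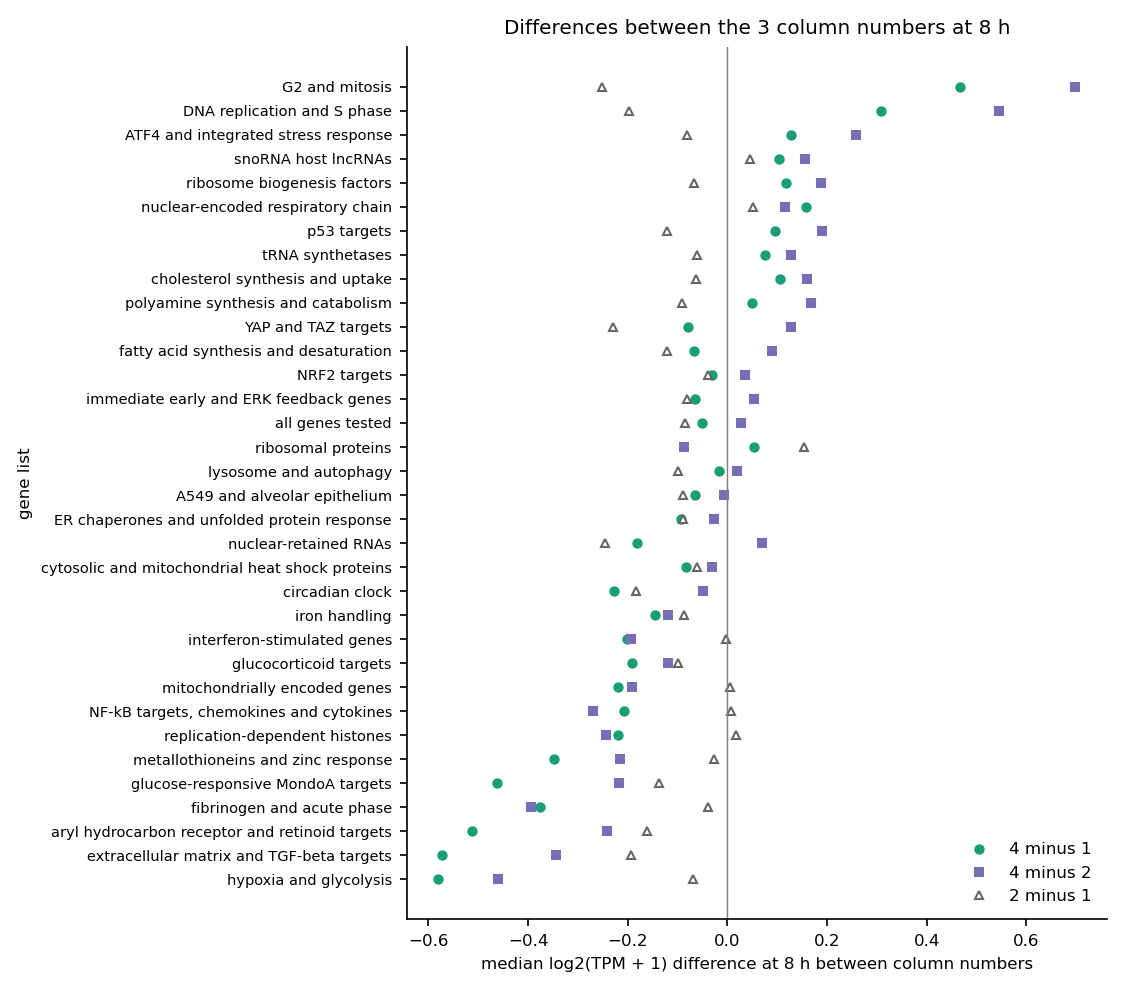
Median log2 difference at 8 h of each gene list for each pair of column numbers (4 minus 1, 4 minus 2 and 2 minus 1). For mitosis the values are 0.47, 0.70 and -0.25, and for the hypoxia, mitosis, replication and matrix lists the pair 2 minus 1 is nearer to 0 than both pairs with 4.

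Library makeup moved with the number. Mitochondrially encoded genes held 9.42% to 12% of TPM in the libraries numbered 4 and 11.5% to 13% in the others at 8 h, lower in 4 of 4 groups. At 12 h they held 9% against 12.7% (mean difference -3.71 percentage points, SD 2.62, n = 4 groups, exact permutation test, two-sided p = 0.0123, the smallest that 81 arrangements allow, and 0.0246 adjusted over 6 measures). Of 13 such genes 6 were called lower at 8 h and 12 at 12 h, against 7.79% and 8.64% of all genes, and 2 at 12 h without number 2. MT-CYB, the cytochrome b gene, stood at 3236 to 4008 TPM against 4175 to 5113 TPM at 8 h (-0.36). The 10 highest genes held 12.7% to 15.2% of TPM against 13.5% to 15.5% at 8 h, and 12% against 14.5% at 12 h (exact permutation p = 0.0123, adjusted 0.0246). The siFLuc mock 12 h library numbered 4 was the lowest in both shares, at 5.43% and 9.5%. The permutation drew each group apart, although the same number runs through all 4 groups. These p-values therefore do not measure a difference between the numbers as sets.

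Transcript length also moved with the difference at 8 h. With genes split by transcript length into 5 equal bins, from the shortest to the longest, the median difference went from 0.07 to -0.10, and the share of genes called lower from 3.85% to 12.3% and called higher from 11.6% to 2.27%. At 12 h the medians went the other way, from 0.03 to 0.22, and between numbers 2 and 1 from -0.02 to -0.15. Over 5 bins of GC content the 8 h medians lay between -0.02 and -0.0026. Median lengths were 3349 bases for the hypoxia list, 3038 for mitosis, 3240 for replication and 5124 for the matrix list. Of all genes 8.09% were called higher and 7.79% lower at 8 h. For 587 processed pseudogenes the calls were 31 higher (5.28%) and 5 lower (0.852%). For 478 antisense genes they were 4 (0.837%) and 26 (5.44%), and for 407 lincRNA genes 10 (2.46%) and 35 (8.6%). Among these shares only that of lincRNA genes called lower was above the share of all genes, and it was near it. For 12105 protein-coding genes the shares were 9.04% higher and 8.38% lower. The part of length in the gene results was not tested.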

How the data were processed

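The deposited table holds TPM values for 60609 gene rows in 24 columns, and each column sums to 1000000. Per the labels' protocols, TRIzol and Direct-zol extraction with DNase preceded a stranded Illumina mRNA preparation. The aligner, quantifier, build and annotation the authors used are not given in the sources used here, nor is the strand setting. Columns were matched to samples by group and number: 16 matched a labelled replicate, and the 8 numbered 4 were used as members of their group. TPM keeps no depth, so no counting interval is given.

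Genes with a mean of at least 1 TPM over the 24 columns were analysed as log2(TPM + 1) of the deposited values, a scale that understates the change of low genes, with limma 3.58.1 in R 4.3.3 (eBayes with an intensity trend). The 8 h and 12 h libraries were fitted apart, with group and number set as terms, and all 24 together for the contrast between times. Benjamini-Hochberg adjustment ran over all 14344 genes, with a threshold of 0.05. The members, the gene lists and the tests were chosen with earlier results of these data known. The script was tested on simulated data.

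Named genes were BOP1, the 12 largest higher and 12 largest lower at 8 h with at least 5 TPM in the higher set and library 4 outside both others in all 4 groups, and up to 4 called genes with the largest 8 h difference of each list. Any other gene was named after its values were seen. A few genes are not reported here. The alternatives were a pseudocount of 0.1, filters of a mean above 0 and of 5 TPM, scaling by median of ratios or by quantiles, no eBayes trend, the column number as a replicate block, all 24 columns in the fit, and each library or number left out. Positions and lengths are from GENCODE 29 (58502 rows matched), promoters from RefSeq on GRCh38.p14. Values of paralogs, pseudogenes and multigene families are uncertain, since the assignment of shared reads is not given in the sources used here.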

Additional observations from a re-analysis of the deposited data

Results flagged for a closer look

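The difference between the libraries numbered 4 and the others itself differed between the times for 12 of the genes named by size. In this contrast 1 term is the chosen 8 h comparison, and these genes were picked for large values of that term. A difference that shrinks or is lost at 12 h is therefore favoured by the choice. Nothing is read from such a change or from the count of 12. Over all genes, the difference was called more positive at 12 h for 21% and more negative for 4.46%. The values here are the 12 h minus the 8 h difference on the log2(TPM + 1) scale. It was higher at 12 h for CCNG2 (2.07), EFNA1 (1.73), AREG (1.01) and MUC5B, a secreted mucin (0.93). It was lower at 12 h for the short RNAs SNORD94 (-2.3) and Metazoa_SRP (-2.25), for the pseudogenes H3P16 (-1.57) and UBE2SP1 (-0.928), for MIR210HG (-1.07), for the transcript ENSG00000234460 (-0.914), and for EDN2 (-0.848) and PBK (-0.659). For CCNG2, EFNA1, H3P16 and Metazoa_SRP the sign of the difference also changed between the times, from -1.09, -1.02, 0.90 and 2.05 at 8 h to 0.98, 0.71, -0.67 and -0.20 at 12 h. Metazoa_SRP did not pass at 12 h (adjusted p = 0.748). H3P16 did not pass at 12 h without number 1 (adjusted p = 0.0844) or without number 2 (0.0801). Dixon's test at 4 values flagged no sample among the within-group differences of 25 genes. All of them but BOP1 were chosen for a library 4 outside both others in all 4 groups, which favours groups that agree. A test on 4 values also has little power, so nothing is read from the lack of flags.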

How the results depend on the processing

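Counts of calls and list medians were recomputed under each alternative, and the contrast between times under both scalings and the replicate block. At 8 h the filter of a mean above 0 gave 655 genes higher and 587 lower in place of 1161 and 1117, and leaving out a library or number gave 493 to 1120 higher and 315 to 1381 lower. The replicate block on the column number gave 1462 and 1523 at 8 h and 4403 and 1193 at 12 h. At 12 h rescaling gave 2176 higher and 2491 lower, quantile normalization 2199 and 2184, and leaving out a library or number 2161 to 4520 and 536 to 1256. Without number 1 the 12 h counts were 2161 and 536, and without number 2 they were 2550 and 616. For the contrast between times rescaling gave 1654 higher and 1566 lower, and quantile normalization 1557 and 1369. For the IFN effect, where 0 genes were called, a pseudocount of 0.1 gave 2, a mean above 0 gave 44 and all 24 columns gave 2, and leaving out a library or number gave 0 to 9. For the siRNA effect a mean above 0 gave 43 and leaving out a library or number gave 0 to 10. The cause was not tested. The fatty acid list's 8 h median of 0.01 turned to -0.00669 with a filter of 5 TPM and to -0.0287 with quantile normalization, and ran from -0.0665 to 0.0891 over the fits with a library or number left out. With rescaling the 12 h medians of NRF2 targets, aryl hydrocarbon receptor and retinoid targets and polyamine genes turned to -0.0441, -0.0346 and -0.0369. The 8 h medians of hypoxia (-0.58 to -0.46), mitosis (0.47 to 0.70), replication (0.31 to 0.55) and matrix genes (-0.57 to -0.34) kept their sign with each library or number left out. A p-value here rests on 3 libraries a group, and TPM gives no depth by which to set a detection limit.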

Other observations

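The lists not described above are read against 8.09% of all genes called higher and 7.79% called lower at 8 h, and against 31.7% and 8.64% for 12 h. Of 21 endoplasmic reticulum chaperones 2 were called lower at 8 h (HSPA5 and HYOU1) and 14 were higher at 12 h, or 9 with 4 lower after rescaling. Of 19 heat shock proteins 4 were lower at 8 h (HSPA1A, HSPA1B, HSPB1 and HSP90AB1) and 13 higher at 12 h, with medians of -0.06 and 0.44. With rescaling 6 were higher and 2 lower at 12 h, without number 1 or number 2 the higher calls were 6, and without the siFLuc mock library numbered 4 the 12 h median was 0.19. HSPA1A and HSPA1B are near-identical copies. Of 20 tRNA synthetases, several of them ATF4 targets, 5 were higher at 8 h and 13 at 12 h. Of 19 YAP and TAZ targets 2 were higher and 3 lower at 8 h and 11 were higher at 12 h. CCN2, a YAP target that encodes a matricellular protein, differed by -0.48 at 8 h and by 1.20 at 12 h (limma adjusted p = 8.42e-05). Of 16 clock genes 3 were lower at 8 h (PER2, BHLHE40 and NFIL3), and 9 were higher and 1 lower (CIART) at 12 h. PER2 differed by -0.75 at 8 h and by 0.82 at 12 h (adjusted p = 0.00057). Of 5 MondoA targets 3 were lower at 8 h and 4 higher at 12 h. Of 12 glucocorticoid targets 3 were lower at 8 h (KLF9, ANGPTL4 and MT2A), and 7 were higher and 3 lower at 12 h.

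Of 28 NRF2 targets 4 were higher and 6 lower at 8 h, with FTL (0.35), ferritin light chain, among the higher and HMOX1 (-0.53), heme oxygenase, among the lower. The 12 h counts were 10 and 3, and with rescaling 3 and 9. Among 13 iron genes 1 was higher and 4 lower at 8 h. The 12 h counts were 3 and 2, or 1 and 5 with rescaling. The 32 lysosome and autophagy genes gave 5 higher and 5 lower calls at 8 h. The 12 h counts were 10 and 2. With rescaling the 12 h counts were 1 higher and 6 lower, with quantile normalization 2 and 5, and without number 1 they were 1 and 0. Of 9 aryl hydrocarbon receptor and retinoid targets 1 was higher (ALDH1A3, a retinal dehydrogenase) and 5 lower at 8 h, with a median of -0.38, and at 12 h the counts were 4 and 3. Of 13 fatty acid genes 2 were higher at 8 h (FADS2 and ACSS2), and 4 were higher and 3 lower at 12 h (1 and 4 with rescaling). Of 9 polyamine genes 3 were higher and 1 lower (SAT1) at 8 h, and 4 were higher at 12 h. ODC1, the first enzyme of polyamine synthesis, differed by 0.44 at 8 h and by 1.01 at 12 h (adjusted p = 0.000561).

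Of 79 ribosomal protein genes 1 was higher (RPS26) and 3 lower (RPL3, RPL28 and RPLP0) at 8 h, and 16 were lower at 12 h. The 12 h count rested on the setting: 58 were lower with rescaling, 6 with quantile normalization, 1 without number 1 and 0 without number 2. Of 18 replication-dependent histone genes tested, of 56 listed, 4 were lower at 8 h and 11 at 12 h (3 without number 1), which is the other direction from the replication list at 8 h. Histone transcripts largely lack a poly(A) tail, and the libraries were made from polyadenylated RNA. Of 16 snoRNA host transcripts 6 were higher and 1 lower (ZFAS1) at 8 h, and at 12 h 3 were higher and 5 lower (2 and 9 with rescaling). Of 6 nuclear-retained RNAs 2 were lower at 8 h, MALAT1 (-0.57) and NEAT1 (-0.67), and MALAT1 fell by 0.40 at 12 h (adjusted p = 0.0273), a call lost without number 1 (0.0982), without number 2 (0.0656) and without the siFLuc mock library numbered 4 (0.139). Their summed share of TPM was 0.0282% to 0.0452% in the libraries numbered 4 and 0.0403% to 0.0527% in the others at 8 h. The 22 A549 and alveolar genes gave 3 higher and 4 lower calls at each time, and at 12 h 2 and 9 with rescaling. The lower genes at 8 h included the mucin genes MUC5B (10.8 to 22.8 TPM against 20.9 to 43.9 TPM, -1.08) and MUC5AC (-0.91). At 12 h MUC5B differed by -0.15 (adjusted p = 0.514) and MUC5AC by 0.14 (adjusted p = 0.622).

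The largest positive values at 8 h belonged to short RNAs, whose TPM is divided by a short length. ENSG00000278791, a microRNA gene, stood at 5.69 to 19.7 TPM against 0 to 13.2 TPM, SNORD94 at 2.03 to 11.5 TPM against 0 to 2.21 TPM and Metazoa_SRP at 3.89 to 11.2 TPM against 0 to 3.18 TPM. At 12 h their differences were -0.06, 0.03 and -0.20 (adjusted p = 0.954, 0.957 and 0.748). SNORD94 and Metazoa_SRP reached the filter on mean TPM only through the 8 h libraries numbered 4.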
